A study of Mus musculus with 6 samples.

Results

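The 9 genes studied here belong to the EGR, NR4A and IER families of immediate early genes, and were followed through messenger RNA libraries of regulatory T cells (Tregs) from mice with stroke. They are Egr1, Egr2, Egr3, Nr4a1, Nr4a2, Nr4a3, Ier2, Ier3 and Ier5, chosen by gene symbol as members of these families. The choice was made with earlier results of these data known. All 9 were found among the 51361 genes of the count table, of which 31242 had a count in at least 1 library, and all 9 were among the 16657 genes tested. The sort took CD4+ CD25+ Foxp3+ cells, and the mice carry Tg(Foxp3-DTR/EGFP)23.2Spar, a transgene in which Foxp3 regulatory sequence drives a diphtheria toxin receptor fused to EGFP. All mice were males of 9 weeks on the C57BL/6N background. There were 3 groups of 2 libraries each. The tMCAO brain and tMCAO blood groups come from mice whose middle cerebral artery had been occluded for 60 min and then reopened, with cells taken on day 14, and the sham blood group comes from sham-treated mice. No sham brain group was analysed here, and every group carries the transgene. Each library was made from 500 to 1000 cells. The labels do not say whether the 2 libraries of a group come from separate mice, so the spread behind each p-value is that of the libraries and may be technical only.

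Immediate early genes are transcribed within minutes of a stimulus, without the need for new protein, because the factors that switch them on (CREB, SRF with its ternary complex partners, MEF2, NFAT and NF-kB) are already present in the cell. EGR proteins are zinc finger transcription factors, and Egr2 and Egr3 are known in T cells for restraining activation and for anergy. NR4A proteins are orphan nuclear receptors that follow antigen receptor signals, and in Tregs they are known to maintain Foxp3 and the Treg programme. Ier2 and Ier5 encode small related nuclear proteins, while Ier3 (also called IEX-1) encodes a membrane-associated regulator of cell death that NF-kB induces. The same genes respond to stimuli in neurons, glia and myeloid cells, so none of them marks a cell type.

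Totals ran from 14348179 to 24460894 counts per library. The labelled cell type was checked against its markers. Foxp3, the defining Treg factor, was highest in the sham blood libraries, at 50.1 and 60.7 CPM (counts scaled to the TMM-adjusted library size). Library 1 and library 2 of tMCAO blood had 0.538 and 5.18 CPM, and those of tMCAO brain 0.726 and 19.6 CPM. Library 1 of tMCAO brain and library 1 of tMCAO blood therefore stood apart, with Foxp3 near 0, and are called the low-Foxp3 libraries. The share of counts on 17 T cell markers was 0.898% and 0.876% for sham blood, 0.067% and 0.453% for tMCAO blood, and 0.0271% and 0.15% for tMCAO brain. The summed share on 20 microglia markers ran the other way, from 0.0909% and 0.117% for sham blood through 1.05% and 0.681% for tMCAO blood to 2.98% and 2.46% for tMCAO brain. The 20 did not move as a whole in blood. In tMCAO blood against sham blood 7 were called higher and 2 lower (edgeR adjusted p under 0.05), where 4.33% of all genes were higher and 3.15% lower. Sall1 and Slc2a5 had no counts in either tMCAO blood library. Every T cell and Treg marker had counts in all 6 libraries, so neither list was absent. Both libraries labelled tMCAO brain, and also tMCAO blood 1, held far more microglia marker RNA than T cell marker RNA. In tMCAO blood 2 the shares were closer, at 0.681% for microglia and 0.453% for T cell markers. In such bulk libraries, fewer cells of a type and less RNA per cell cannot be told apart.

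Because the members were high in the same libraries, the DNA just upstream of their start sites was searched on both strands for motifs of CREB, SRF, NF-kB, EGR and NR4A proteins. The RefSeq promoter table (GRCm38.p6) held windows for 6 of the 9 members, namely Egr2, Nr4a1, Nr4a2, Nr4a3, Ier3 and Ier5. Each window spans 250 bases before to 50 bases after a start site, and the table holds 32851 windows. A member counts if any of its windows holds a match, and Egr2 has several. The shares of all windows are per window, so the 2 are not like for like. The core of the CREB element, TGACG, was found on either strand in windows of Egr2, Nr4a1, Nr4a2 and Nr4a3, 4 of the 6 members, and in 20.8% of all windows. The full element, TGACGTCA, was in 1.79% of windows and in none of the 6 members'. A CArG box, to which SRF binds, lay in windows of Egr2 and in 1.63% of all windows. An NF-kB site was found for Nr4a1 and Ier3 and in 4.51% of windows. The EGR motif GCGNGGGCG was found for Nr4a1 and Nr4a2 and in 5.55% of windows, and the NR4A motif AAAGGTCA for none and in 1.51%. A match of letters is a description and not a site shown to be bound.

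Stretches of 4 members are shown because they carry these matches, 5′ to 3′ on the gene's strand, in lower case with the matches in capitals. Egr2 is chr10:67537619-67537868 (GRCm38.p6, plus strand), where the capitals mark 2 CREB cores flanking the CArG box. Nr4a1 is chr15:101266596-101266845 (plus strand), where the 4 copies of TGCGTCA each hold a CREB core on the other strand, and the remaining capitals are an EGR motif that overlaps none of them. The motif TGCGTCA was searched for after the sequence had been seen, and 2.12% of windows hold it. Nr4a3 is chr4:48045055-48045152 (plus strand), with 3 of its 4 CREB cores, the other lying beyond the stretch shown. Ier3 is chr17:35821463-35821683 (plus strand), with its NF-kB site.
Egr2: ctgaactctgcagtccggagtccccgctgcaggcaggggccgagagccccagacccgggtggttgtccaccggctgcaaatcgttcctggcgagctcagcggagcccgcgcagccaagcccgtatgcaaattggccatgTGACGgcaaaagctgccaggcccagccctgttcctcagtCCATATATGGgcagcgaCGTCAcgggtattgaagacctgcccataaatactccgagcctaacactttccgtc
Nr4a1: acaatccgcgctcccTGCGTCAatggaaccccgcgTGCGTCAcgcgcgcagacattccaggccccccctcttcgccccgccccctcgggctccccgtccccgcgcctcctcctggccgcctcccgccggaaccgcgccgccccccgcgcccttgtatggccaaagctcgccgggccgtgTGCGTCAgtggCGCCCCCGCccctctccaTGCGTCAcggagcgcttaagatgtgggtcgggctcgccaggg
Nr4a3: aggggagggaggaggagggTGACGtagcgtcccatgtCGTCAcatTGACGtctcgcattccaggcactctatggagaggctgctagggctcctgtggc
Ier3: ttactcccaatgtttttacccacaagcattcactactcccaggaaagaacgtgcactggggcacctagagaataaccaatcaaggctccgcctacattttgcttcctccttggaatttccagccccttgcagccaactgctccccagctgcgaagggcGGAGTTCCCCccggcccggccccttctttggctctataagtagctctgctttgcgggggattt

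The first comparison set tMCAO brain against tMCAO blood, which asks how the labelled Tregs of the injured brain differ from those circulating in the same condition. In all, 6 members rose in brain and none fell (edgeR's quasi-likelihood test, Benjamini-Hochberg adjusted p under 0.05), where 3.53% of all 16657 genes were called higher. Those that rose were Egr1, Egr3, Nr4a1, Nr4a2, Nr4a3 and Ier2. In all 9 members both brain libraries lay above both blood libraries, an arrangement seen in 31.4% of all genes. The median log2 change was 4.11 over the members and 0.0622 over all genes. Fitting only the 2 groups compared left no member called, and 0.137% of all genes called higher. Leaving out either sham blood library, which is in neither group compared, also ended the call of every member. Each fit without 1 library called fewer genes over the whole table than the main fit. Without tMCAO blood 1 or 2 the calls of Egr3, Nr4a2 and Ier2 were lost. Without tMCAO brain 1 the call of Egr3 was lost, and without tMCAO brain 2 those of Egr3 and Nr4a1. Without both low-Foxp3 libraries, a setting chosen after the data were seen, 8 members were called higher, as were 11.9% of all genes. That fit leaves 1 library in each tMCAO group, takes its spread from the sham pair alone and assumes that the lone libraries vary like it. Cells from brain and blood may have been prepared differently, which the labels do not describe and which could not be told apart from the tissue.

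The EGR genes were low in all 4 blood libraries and high in both brain libraries. Egr1 (chromosome 18, bases 34859823 to 34864984, GRCm38), the family member most widely induced by growth factors and stress, reached 592 and 455 CPM in the 2 brain libraries. The tMCAO blood pair held 15.0 and 6.93 CPM, and the sham pair 3.08 and 4.08 CPM. The groups did not overlap, and brain exceeded tMCAO blood 47.8-fold (log2 5.58 ± 0.51 SE, edgeR adjusted p = 0.0148, n = 2 a group). Without tMCAO blood 1 the log2 change was 6.23. Egr2 (chromosome 10, bases 67535475 to 67542188), which restrains T cell activation with Egr3, reached 96.1 and 62.3 CPM in the brain libraries. The tMCAO blood libraries held 3.18 and 0.249 CPM, and the sham libraries 1.22 and 0. Both brain libraries were far above every blood library, but the tMCAO blood libraries held 59 and 5 counts, and the difference missed the threshold (log2 5.53 ± 1.43, edgeR adjusted p = 0.0746). Egr3 (chromosome 14, bases 70077203 to 70082614) reached only 17.9 and 21.1 CPM in the brain libraries. The tMCAO blood pair held 0.646 and 1.59 CPM and the sham pair 0 and 0.141 CPM. The rise over tMCAO blood was 17.2-fold (log2 4.11 ± 0.82, edgeR adjusted p = 0.0474), with log2 4.89 without tMCAO blood 2. Leaving out any 1 of the 6 libraries ended the call of Egr3 (edgeR adjusted p from 0.0855 to 0.117). Egr4, a relative known mainly from neurons, had 3 and 6 counts in the brain libraries and 0 in each blood library, too few to be tested. Its level in brain was 2.83-fold that of tMCAO blood if the latter is given a floor of 3 counts. That ratio leaves out the error of the brain counts.

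**Figure D1:**
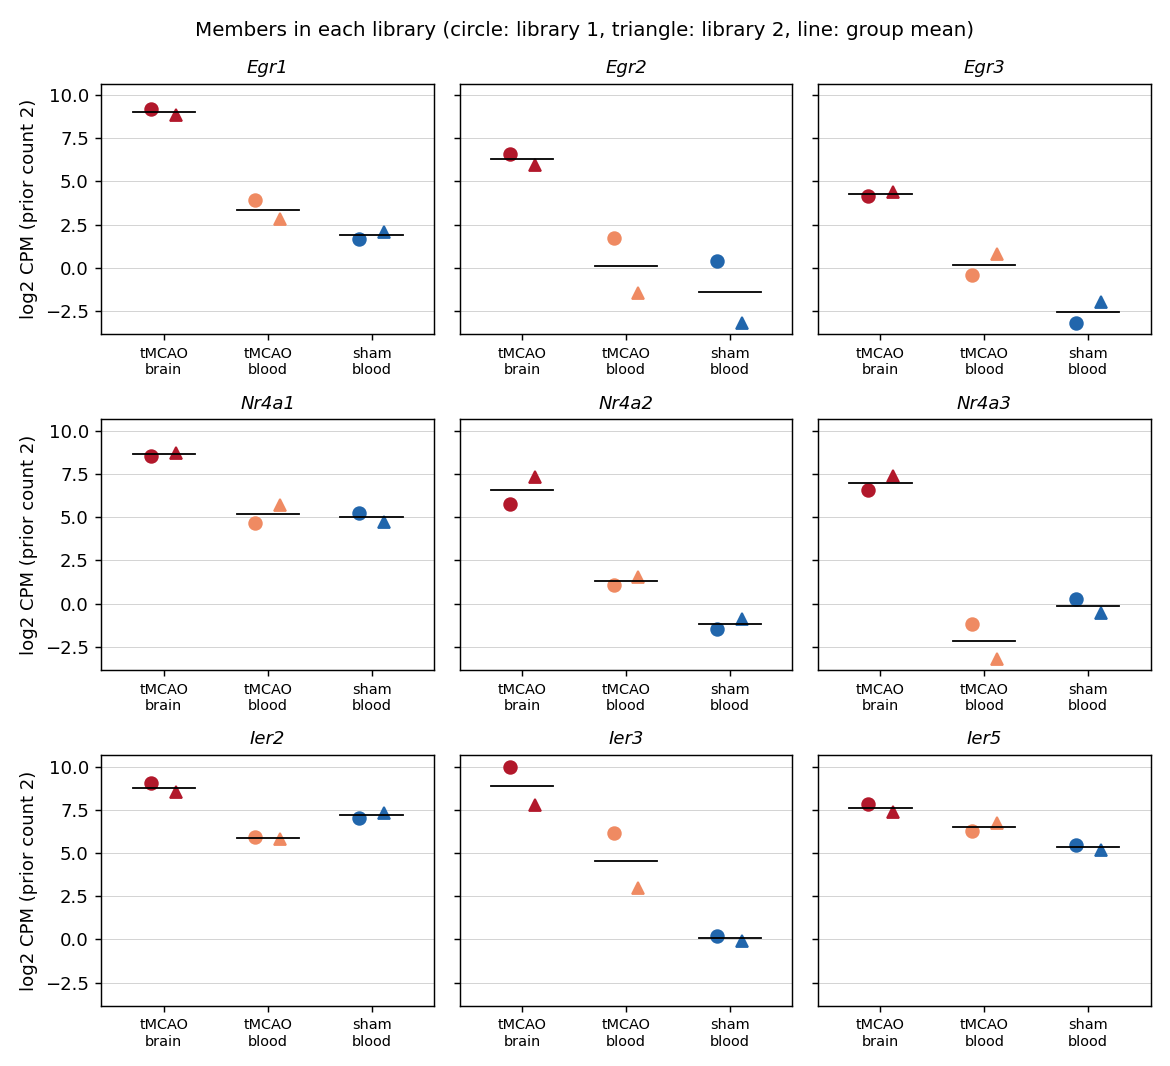
Log2 CPM (prior count 2) of each of the 9 members (vertical axis) in the 3 groups (horizontal axis). Circles are library 1, triangles library 2 and lines the mean of the group. Both brain libraries lie above all 4 blood libraries in every panel, by the most for Nr4a3, and Ier5 shows the smallest step.

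All 3 NR4A genes rose in brain, and they differed in what the blood libraries held. Nr4a1 (chromosome 15, bases 101254269 to 101274795), also called Nur77 and used as a reporter of antigen receptor signals, reached 369.7 and 431.8 CPM in the brain libraries. The tMCAO blood pair held 24.8 and 51.5 CPM and the sham pair 38.5 and 26.7 CPM. The 2 blood groups overlapped, and brain exceeded tMCAO blood 10.5-fold (log2 3.39 ± 0.45, edgeR adjusted p = 0.0238). Without tMCAO blood 2 the log2 change was 4.0. Nr4a2 (chromosome 2, bases 57106830 to 57124003, minus strand), also called Nurr1, reached 55.1 and 160.7 CPM in the brain libraries. Levels stepped down to 1.99 and 2.84 CPM in the tMCAO blood pair and to 0.257 and 0.422 CPM in the sham pair. The brain libraries differed 2.92-fold from each other, and the rise over tMCAO blood was 44.5-fold (log2 5.48 ± 0.64, edgeR adjusted p = 0.0195), or log2 4.51 without tMCAO brain 2. Nr4a3 (chromosome 4, bases 48045153 to 48086447), also called Nor1, reached 95.05 and 169.8 CPM in the brain libraries. The tMCAO blood libraries held 6 and 0 counts (0.323 and 0 CPM), fewer than the 17 and 8 counts of the sham libraries (1.09 and 0.563 CPM). This was the largest change among the members, 809-fold with only 6 counts in the lower group (log2 9.66 ± 1.02, edgeR adjusted p = 0.0168). It was log2 14.23 without tMCAO blood 1, which leaves a group of 0 counts, and log2 8.64 without tMCAO blood 2.

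Of the IER genes, Ier2 rose in brain, and Ier3 and Ier5 missed the threshold. Ier2 (chromosome 8, bases 84661331 to 84662852, minus strand) reached 527 and 368 CPM in the brain libraries, while the tMCAO blood pair held 62.2 and 55.8 CPM and the sham pair 131 and 163 CPM. The rise over tMCAO blood was 7.58-fold (log2 2.92 ± 0.33, edgeR adjusted p = 0.0185), and sham blood lay between the other groups without overlap. Ier3 (chromosome 17, bases 35821684 to 35822923) reached 1032 and 223.7 CPM in the brain libraries. The tMCAO blood pair held 71.0 and 7.82 CPM, and the sham pair 1.03 and 0.844 CPM. Library 1, the low-Foxp3 library, was the higher of the pair in both tMCAO groups, 4.61-fold in brain and 9.08-fold in blood. With that spread the difference of log2 3.99 ± 1.19 had an edgeR adjusted p of 0.0937. It was log2 2.50 without tMCAO brain 1, 4.71 without tMCAO brain 2, 6.32 without tMCAO blood 1 and 3.14 without tMCAO blood 2, and passed in none of these. Ier5 (chromosome 1, bases 155096361 to 155099636, minus strand) had the smallest difference, with 234 and 166 CPM in the brain libraries, 78.0 and 105 CPM in the tMCAO blood pair and 43.8 and 36.6 CPM in the sham pair. The fitted fold over tMCAO blood was 2.18 (log2 1.12 ± 0.31, edgeR adjusted p = 0.0838). Ier5l, the close relative of Ier5, had 1.94 and 3.88 CPM in the brain libraries, 1.18 and 0 in the tMCAO blood pair and 0 and 0.0704 in the sham pair, and was called in no comparison (edgeR adjusted p = 0.385, 0.273 and 0.115 in the order of the 3 comparisons).

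The second comparison set tMCAO blood against sham blood, which asks what the occlusion left in circulating cells. None of the 9 members passed (edgeR, 0 called, where 4.33% of all genes were called higher and 3.15% lower), and 6 of 9 had an unadjusted p under 0.05, as did 29.6% of all genes. DESeq2 called 7 members and 23.8% of all genes, and limma-voom 1 member and 6.88%. Of the 9, 5 members (Egr1, Egr3, Nr4a2, Ier3 and Ier5) had both tMCAO libraries above both sham libraries, as did 33.6% of all genes. Nr4a3 and Ier2 had both below, as did 30.4%, and Egr2 and Nr4a1 overlapped. The median log2 difference was 1.44 over the members and 0.112 over all genes. By edgeR the count was 1 without either tMCAO brain library (Nr4a2) and 2 without tMCAO blood 2 (Egr1 and Ier3). With both low-Foxp3 libraries left out it was 7, and 21.2% of all genes were called.

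Among these differences, that of Ier3 was the widest, at log2 5.38 ± 1.32 (edgeR adjusted p = 0.0592), and it was log2 3.05 without tMCAO blood 1. Nr4a2 differed by log2 2.82 ± 0.69 (edgeR adjusted p = 0.0592), on 37 and 57 counts against 4 and 6. Egr3 rested on 44 counts against 2, a ratio of 16.96 with a 95% counting interval of 4.42 to 144 that covers counting error only (edgeR adjusted p = 0.069). Egr1 and Ier5 differed by log2 1.61 ± 0.45 and 1.19 ± 0.31 (edgeR adjusted p = 0.0755 and 0.0678). Ier2 went the other way, by log2 -1.32 ± 0.31 (edgeR adjusted p = 0.0558), as did Nr4a3, by log2 -2.36 ± 1.01 (edgeR adjusted p = 0.180) on 6 and 0 counts against 17 and 8. Nr4a1 differed by log2 0.23 ± 0.42 and Egr2 by log2 1.44 ± 1.41 (edgeR adjusted p = 0.747 and 0.526).

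The third comparison set tMCAO brain against sham blood, so that tissue and occlusion differ together and cannot be told apart. All 9 members rose (edgeR adjusted p under 0.05), where 8.01% of all genes were called higher. All 9 also had no overlap between the groups, as did 34.9% of all genes, and the median log2 change was 7.19 over the members and 0.093 over all genes. The comparison shares its brain libraries with the first one and its sham libraries with the second. Without sham blood 1 or sham blood 2, no member and no other gene passed, and without both low-Foxp3 libraries all 9 members were called higher, as were 17.7% of all genes.

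Against sham blood, Egr1 rose 146-fold (log2 7.19 ± 0.56, edgeR adjusted p = 0.00841) and Egr2 126-fold (log2 6.98 ± 1.57, edgeR adjusted p = 0.0429). Sham blood held 19 and 0 counts of Egr2, and the log2 change was 6.00 without sham blood 2 and 13.49 without sham blood 1, which leaves a group of 0 counts. The call of Egr2 was also lost without tMCAO brain 1 or tMCAO brain 2 (edgeR adjusted p = 0.0975 and 0.0633). Egr3 had 811 counts in brain and 2 in sham blood, a ratio of 294.6 with a 95% counting interval of 81.3 to 2437 (edgeR adjusted p = 0.0144). Its fitted log2 change was 6.92 without sham blood 1 and 11.53 without sham blood 2. All 3 EGR genes were thus far above their sham level in both brain libraries. Nr4a2 rose 314-fold (log2 8.29 ± 0.76, edgeR adjusted p = 0.00841), Nr4a3 158-fold (log2 7.30 ± 0.89, edgeR adjusted p = 0.0120) and Nr4a1 12.3-fold (log2 3.62 ± 0.46, edgeR adjusted p = 0.0132). Nr4a2 was at log2 7.32 without tMCAO brain 2. Ier3 rose 665-fold (log2 9.38 ± 1.54, edgeR adjusted p = 0.0203), with log2 7.88 without tMCAO brain 1 and 10.09 without tMCAO brain 2. The remaining IER genes moved least, Ier5 by 4.97-fold (log2 2.31 ± 0.32, edgeR adjusted p = 0.0148) and Ier2 by 3.04-fold (log2 1.60 ± 0.32, edgeR adjusted p = 0.0319, or 0.0988 without tMCAO brain 1).

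**Figure D2:**
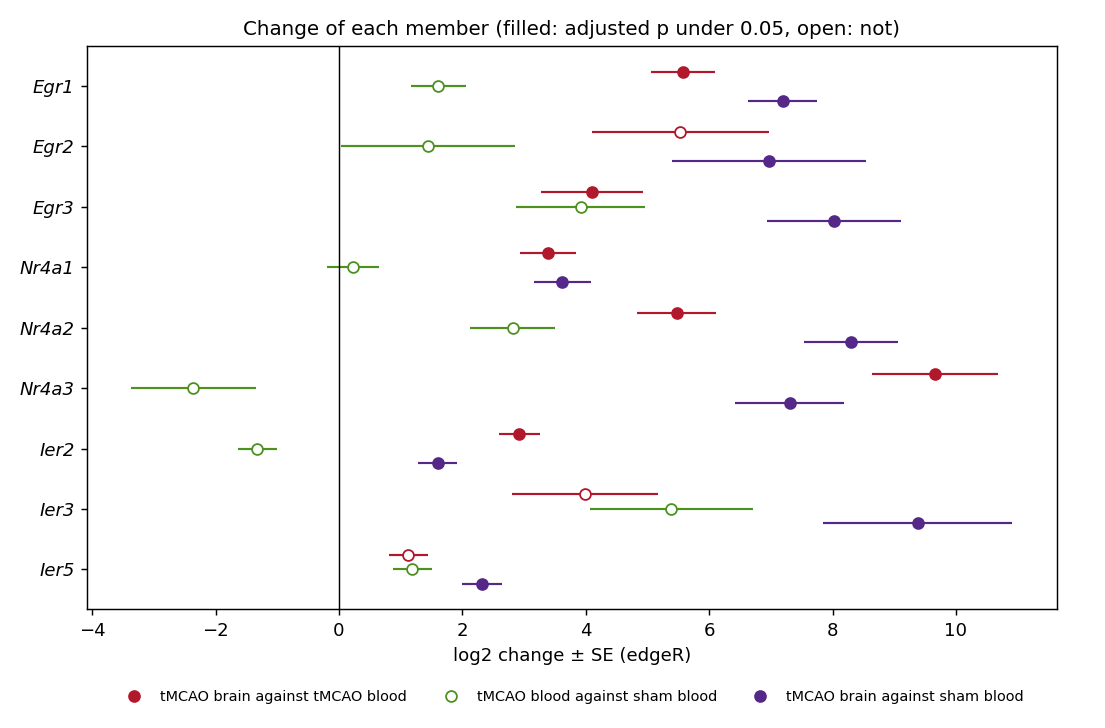
Log2 change ± SE (horizontal axis, edgeR) of each member (vertical axis) in the 3 comparisons. Filled points have an adjusted p under 0.05. All 9 points for tMCAO brain against sham blood and 6 of 9 for tMCAO brain against tMCAO blood are filled, and the 9 for tMCAO blood against sham blood are open, with Nr4a3 and Ier2 below 0.

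Levels can be compared between genes only per length of transcript, so CPM were divided by the summed exon length in kb. On that scale (CPM per kb, mean ± SD, n = 2) the order in tMCAO brain was Ier3 at 555 ± 505, Ier2 at 294 ± 73.7, Egr1 at 117 ± 21.6, Nr4a1 at 114 ± 12.5, Ier5 at 61.0 ± 14.8, Nr4a2 at 26.6 ± 18.4, Egr2 at 23.3 ± 7.02, Nr4a3 at 22.1 ± 8.83 and Egr3 at 4.42 ± 0.52. Ier3 and Ier2 did not differ beyond their spread, nor did Egr1 and Nr4a1, nor Nr4a2, Egr2 and Nr4a3. In sham blood Ier2 led at 96.8 ± 14.9, before Ier5 at 12.3 ± 1.57 and Nr4a1 at 9.30 ± 2.37, and each of the other 6 members stood below 1 CPM per kb. In tMCAO blood Ier2, Ier3, Ier5 and Nr4a1 led at 38.8 ± 2.96, 34.9 ± 39.5, 28.0 ± 5.89 and 10.9 ± 5.38.

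The make-up of the NR4A family differed between brain and blood, and that of the IER family between sham blood and the tMCAO libraries. Make-up is described here by shares of each family's summed CPM per kb and was not tested. Nr4a1 made up 97.8% and 97.5% of the NR4A total in the sham libraries, 92.8% and 95.5% in the tMCAO blood libraries, and 78.2% and 64.4% in the brain libraries. Nr4a2 and Nr4a3 filled the difference, with Nr4a2 at 10.1% and 20.7% and Nr4a3 at 11.8% and 14.8% in brain. Blood was thus almost purely Nr4a1 within this family, while all 3 genes were present in brain. Ier3 made up 0.902% and 0.626% of the IER total in the sham libraries, where Ier2 held 85.8% and 90.0%. The share of Ier3 was 49.3% and 9.13% in the tMCAO blood pair and 68.6% and 40.3% in the brain pair. The libraries of a tMCAO group were far apart in this family, and the brain and tMCAO blood pairs overlapped in their shares of Ier3 and Ier2. Egr1 held 80.3% and 81.4% of the EGR total in the brain pair and 75.5% and 78.0% in the tMCAO blood pair. The sham pair, at 65.7% and 96.6%, rested on 48 and 58 counts of Egr1 and fewer of the others.

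**Figure D3:**
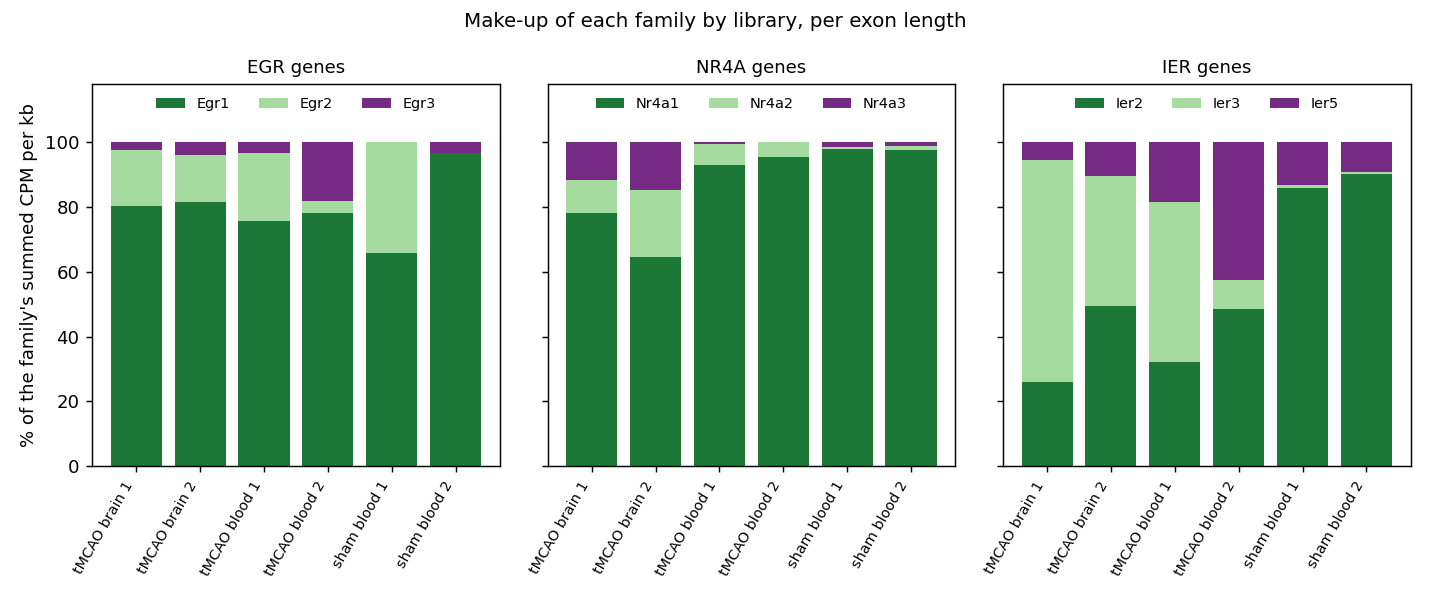
Share in percent (vertical axis) of each gene in its family's summed CPM per kb, in each of the 6 libraries (horizontal axis). Nr4a1 holds 92.8% or more of the NR4A total in the 4 blood libraries and 78.2% and 64.4% in the brain libraries, and Ier3 is under 1% of the IER total in sham blood.

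The factors that switch these genes on were measured from a list of upstream transcription factors, of which 15 were tested. In tMCAO brain against tMCAO blood 2 rose and none fell, and the median log2 change of the list was -0.07. Crem, a cAMP-responsive relative of CREB with activating and repressing forms, rose from 20.9 and 13.7 CPM in tMCAO blood to 254 and 427 CPM in brain (log2 4.30, edgeR adjusted p = 0.0168). Mef2c, a MADS-box factor of muscle, neurons, lymphocytes and microglia, rose from 24.2 and 37.2 to 310.2 and 242 CPM (log2 3.17, edgeR adjusted p = 0.0294). Creb1, which was not called, stood between 61.3 and 79.0 CPM in all 6 libraries, and Srf between 3.34 and 14.1 CPM. In tMCAO blood against sham blood Mef2a rose (log2 1.90, edgeR adjusted p = 0.0363), and in tMCAO brain against sham blood Crem, Mef2a and Mef2c rose.

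Few partners of the EGR and NR4A proteins were called. Nab1 and Nab2, corepressors that EGR proteins themselves induce, were called in none of the 3 comparisons. Their log2 differences between tMCAO brain and tMCAO blood were -0.87 and 0.46 (edgeR adjusted p = 0.115 and 0.471). Of the 3 RXR genes, whose products pair with Nr4a1 and Nr4a2, Rxrg had 5.32 and 6.82 CPM in brain and 0 counts in all 4 blood libraries. It was called higher in brain (edgeR adjusted p = 0.0383 against tMCAO blood), 80.1-fold if tMCAO blood is given a floor of 3 counts. That ratio leaves out the error of the brain counts. Rxra rose in tMCAO blood against sham blood (log2 2.70, edgeR adjusted p = 0.0391).

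A part of the genes that EGR or NR4A proteins are known to control in T cells was called. Of 13 EGR targets tested, Lag3, a coinhibitory receptor, rose in brain from 0.215 and 0.449 CPM in tMCAO blood to 62.8 and 44.4 CPM (log2 7.30, edgeR adjusted p = 0.0148). It was the only 1 of the 13 called in that comparison, where 3.53% of all genes were called higher and 1.37% lower. The sham pair held 0.385 and 0.985 CPM of Lag3. Which cells carried Lag3 RNA was not tested. Against sham blood, 4 of the 13 were higher in brain (Lag3, Cdkn1a, Rnf128 and Bcl2l11) and 2 lower (Dgka and Nrgn). Of all genes, 8.01% were called higher and 2.62% lower there. In tMCAO blood against sham blood, Cdkn1a and Rnf128 were higher and Dgka and Nrgn lower, where 4.33% of all genes were called higher and 3.15% lower. Of 10 NR4A targets, Havcr2, which encodes the receptor Tim-3, rose in brain from 16.3 and 17.2 CPM in tMCAO blood to 96.1 and 138 CPM (log2 2.80, edgeR adjusted p = 0.0205). It is also a gene of microglia. Entpd1, which encodes the ectonucleotidase CD39 and is shared by Tregs and microglia, rose in brain against sham blood (log2 2.6, edgeR adjusted p = 0.0461). The other NR4A targets include Foxp3, Ikzf2, Ctla4 and Tox, and none of them was called. For Foxp3 the difference between tMCAO brain and tMCAO blood was log2 1.83 (edgeR adjusted p = 0.440), with libraries from 0.538 to 19.6 CPM.

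Many other immediate early genes were higher in brain too. Of 28 tested, 12 rose and 1 fell in tMCAO brain against tMCAO blood, and the median log2 change was 2.74 against 0.0622 over all genes. Ptgs2, the inducible cyclooxygenase, had 264 and 227 CPM in brain and 3 counts in tMCAO blood, a ratio of 3113 with a 95% counting interval of 1065 to 1.51e+04 (edgeR adjusted p = 0.0110). Gadd45b, a stress-response gene, rose from 16.2 and 17.8 CPM to 618 and 299.9 CPM (log2 4.75, edgeR adjusted p = 0.0148). Fosb, an AP-1 subunit, rose from 1.99 and 0.548 CPM to 199 and 138 CPM (log2 7.05, edgeR adjusted p = 0.0151). The 1 that fell was Klf2, a factor of quiescent and circulating lymphocytes, from 519 and 409.6 CPM to 37.9 and 67.7 CPM (log2 -3.13, edgeR adjusted p = 0.0248). Against sham blood 19 of the 28 rose in brain and none fell, and in tMCAO blood against sham blood Fosl2 and Klf4 rose and Ppp1r15a fell. Of 12 heat shock genes, Dnajb1 rose in tMCAO brain against tMCAO blood (log2 2.35, edgeR adjusted p = 0.0364) and fell in tMCAO blood against sham blood (log2 -1.92, edgeR adjusted p = 0.0462). Hspa1a and Hspa1b, near-identical copies whose reads may be split, were the 2 higher in brain against sham blood.

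The members' libraries also differed in markers of other cells, and the part of those cells in the results was not tested. In tMCAO brain against tMCAO blood 11 of 20 microglia markers rose and none fell. Sall1, a microglia-defining factor, stood at 25.1 and 34.2 CPM in brain and at 0 in all 4 blood libraries. Of 12 dendritic cell markers 7 rose in the same comparison, with summed shares of 0.00484% and 0.0117% for the tMCAO blood pair and 0.292% and 0.61% for the brain pair. The sham pair was between, at 0.0577% and 0.0764%. Il12b was at 0 in every blood library, and none of the 12 was at 0 in brain. The 20 monocyte and macrophage markers summed to 0.917% and 0.806% of counts for the sham pair and 3.84% and 1.78% for the tMCAO blood pair. The brain pair, at 5.59% and 2.81%, overlapped the tMCAO blood pair. In tMCAO brain against tMCAO blood none of the 20 rose and 2 fell, with a median log2 change of 0.454. Red cell markers took up 15.1% and 16.4% of the sham pair and 0.107% and 3.80% of the tMCAO blood pair, and all 8 were at 0 in tMCAO brain 2. The 17 T cell and 10 Treg markers were called in no comparison, with median log2 differences of -1.46 and -0.23 between tMCAO brain and tMCAO blood.

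Set against myeloid markers, the members' sum was higher in brain than in tMCAO blood, and the part of myeloid cells in it was not tested. The 9 genes together made up 0.0226% and 0.0231% of counts for the sham pair, 0.0247% and 0.0279% for the tMCAO blood pair, and 0.251% and 0.206% for the brain pair. Per 1000 microglia marker counts the brain pair had 84.4 and 83.6 counts of members, the tMCAO blood pair 23.6 and 41.0, and the sham pair 248 and 196.5. On that measure the sum was highest in sham blood, where Ier2, Ier5 and Nr4a1 made up most of it. The other 6 members were higher in both brain libraries than in either sham library per 1000 microglia marker counts, Egr1 for example at 16.55 and 18.49 against 3.47 and 3.45. Per 1000 counts of microglia and monocyte or macrophage markers together, the brain pair had 29.3 and 39.1, the tMCAO blood pair 5.06 and 11.3, and the sham pair 22.4 and 25.0. Brain was the highest by this measure. Ier5 did not follow the sum. Per 1000 microglia marker counts it had 6.55 and 6.73 in the brain pair, and 7.17 and 18.6 in the tMCAO blood pair.

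Scaling the libraries to a marker list instead of the library total moved the median of all genes, so changes are given relative to it. Between tMCAO brain and tMCAO blood, scaling to T cell markers put the median of all genes at log2 1.2, and scaling to microglia and macrophage markers put it at -1.17. The members' median exceeded that of all genes by 4.50 and 4.17. A new scaling shifts most genes alike, so these excesses were bound to stay near the one with library totals. They do not measure the part of cell content, which was not tested. With T cell markers 1 of the 9 was called higher (Nr4a3), as were 2.14% of all genes, and with microglia and macrophage markers 3 were (Egr1, Nr4a2 and Nr4a3), as were 0.907%, while Ier5 turned to log2 -0.30. Against sham blood, the members' median in brain exceeded that of all genes by 7.11 and 7.02 under these scalings, with the same limit. All 9 were called higher with T cell markers, as were 53.2% of all genes, and 6 with microglia and macrophage markers, as were 3% of all genes. Under the latter Ier2 and Ier5 turned to log2 -1.35 and -0.63. Between tMCAO blood and sham blood, the direction of Egr1, Egr2, Nr4a1 and Ier5 turned with microglia and macrophage markers and that of Nr4a3 and Ier2 with T cell markers.

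**Figure D4:**
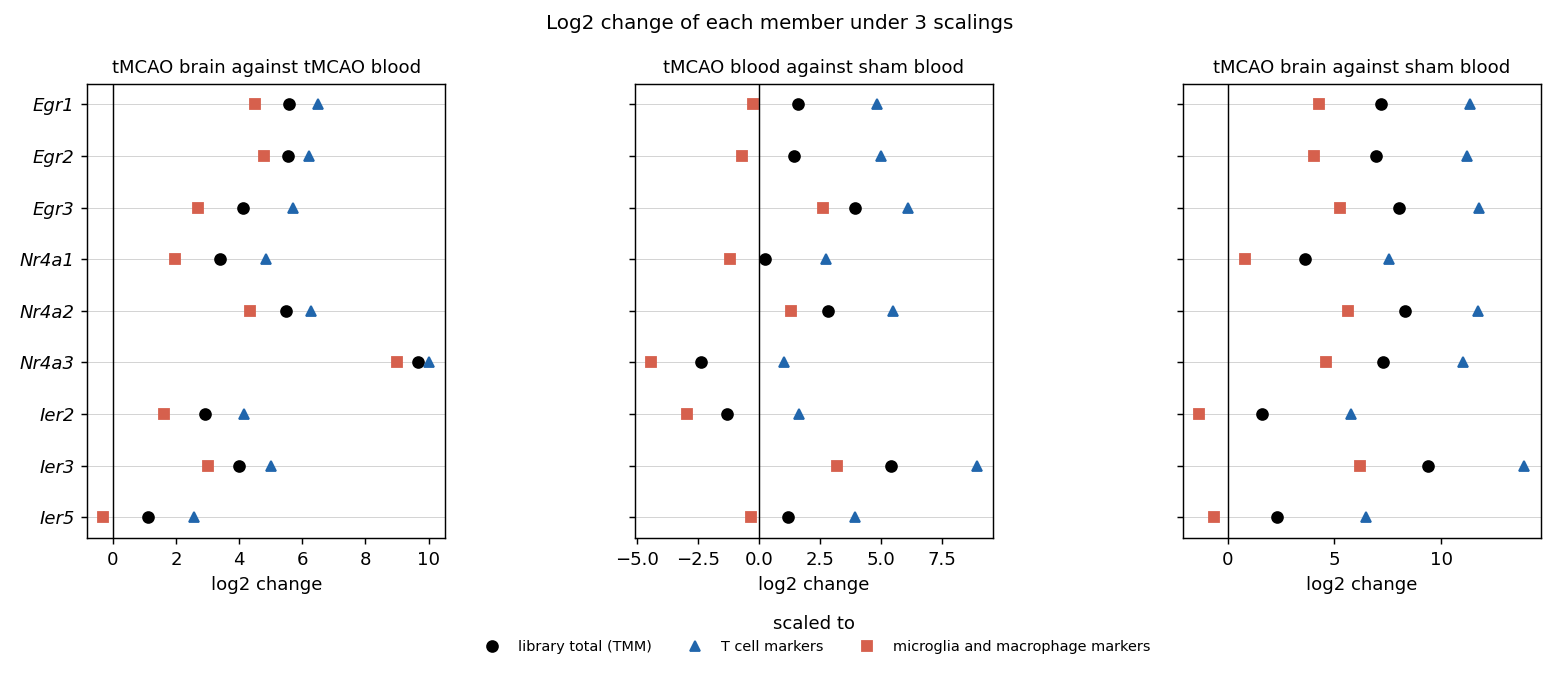
Log2 change (horizontal axis) of each member (vertical axis) in the 3 comparisons, with libraries scaled to their TMM-adjusted totals (circles), to 17 T cell markers (triangles) or to 40 microglia, monocyte and macrophage markers (squares). Points for tMCAO brain against tMCAO blood lie above 0 except Ier5 with microglia and macrophage markers, and those against sham blood except Ier2 and Ier5 with the same markers.

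Across the 6 libraries the members' mean log2 CPM (prior count 2) formed 3 steps, from 1.74 and 1.40 for the sham pair through 3.13 and 2.41 for the tMCAO blood pair to 7.53 and 7.38 for the brain pair. Genes were ranked by the Pearson correlation of their log2 CPM with this mean profile among 7537 genes with at least 20 CPM in their highest group. The points are 6 libraries in 3 groups, which differ in depth and marker content, and 3.16% of these genes had r over 0.95. The closest 5 were Nxt2 (r = 0.9983), an export factor gene, Cd86 (r = 0.9961), a costimulatory ligand of antigen-presenting cells, Sgk1 (r = 0.9959), a serum- and glucocorticoid-induced kinase, Cpq (r = 0.9956) and Lhfpl2 (r = 0.9947). Cd86 had 468 and 379.5 CPM in the brain pair, 78.2 and 47.9 in the tMCAO blood pair and 37.0 and 39.5 in the sham pair. Among the members themselves the pair most alike was Egr3 and Nr4a2 (r = 0.984) and the least alike was Ier2 and Ier5 (r = 0.524), over the same 6 libraries. In tMCAO blood both Ier2 libraries lay below, and both Ier5 libraries above, the sham pair.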

How the data were processed

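Bulk RNA sequencing was deposited as whole-number counts of reads per gene symbol, made by the authors with STAR (version not given) and HTSeq 0.11.2 on GRCm38, per the submitters' processing notes. The annotation release, strand setting and handling of multi-mapped reads are not given in the sources used here. Per the labels' protocols, a SMART-Seq ultralow input kit gave the cDNA, which was sequenced as 75 bp pairs. Reads carry no molecular identifiers, so intervals cover counting error only.

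Libraries were grouped by title. Counts of the 2 libraries of a group differed beyond counting noise (chi-square over its degrees of freedom was 204, 219 and 25.3 in tMCAO brain, tMCAO blood and sham blood). Each library counted as 1 sample, although these values do not show whether the 2 libraries come from separate mice. Genes were filtered with filterByExpr (minimum count 10), scaled by TMM and tested with edgeR 4.0.16 in R 4.3.3, in a single model of all 6 libraries without covariates, which leaves 3 residual degrees of freedom. P-values were adjusted by Benjamini-Hochberg over the 16657 genes tested, with a threshold of 0.05. SE is the log2 change divided by the square root of F. Exon lengths and coordinates come from GENCODE M21, in which no member overlaps another gene. Alternatives used other scalings, filters, DESeq2 1.42.0, limma-voom (limma 3.58.1), other sets of libraries and a replicate block. On simulated counts the test recovered most genes given the larger change tried and few given the smaller one. Counts were simulated around each gene's mean over all libraries, so the near-empty blood groups of some members were not reproduced.

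The members, gene lists and tests were chosen with earlier results of these data known. Named are all members, Egr4 and Ier5l, up to 3 called genes per list and comparison by smallest adjusted p (with none, up to 2 of the most abundant), and the 5 genes closest in profile. A selection of these is given. All genes behind a count of 5 or fewer are named (such as Bcl2l11 and Klf2, chosen after their values were seen), except the 2 monocyte and macrophage markers that fell. Sall1, Il12b, Creb1, Srf, Foxp3, Ikzf2, Ctla4 and Tox were added as defining genes or factors.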

Additional observations from a re-analysis of the deposited data

How the results depend on the processing

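Under 16 alternatives, the direction turned in 1 of 144 log2 values of members for tMCAO brain against tMCAO blood, 10 of 142 for tMCAO blood against sham blood and 2 of 144 for tMCAO brain against sham blood. For tMCAO brain against tMCAO blood, 1 member was called when scaled to T cell markers (2.14% of all genes higher), 3 when scaled to microglia and macrophage markers (0.907%), with Ier5 at log2 -0.30, and 0 with only the 2 groups compared (0.137%). For tMCAO blood against sham blood, where 0 members were called, 2 were called when scaled to T cell markers (7.46% of all genes called in either direction) and 3 when scaled to microglia and macrophage markers (16.7%). The count was 8 with no filter on low counts (11.6%), 4 with the stricter filter of 5 CPM in 2 libraries (16.9%), 7 with DESeq2 (23.8%), 1 with limma-voom (6.88%), 2 with only the 2 groups compared (11.7%) and 7 without both low-Foxp3 libraries (21.2%), an alternative chosen after seeing the data. In the same comparison the direction turned for Egr1 (log2 -0.25), Egr2 (-0.71), Nr4a1 (-1.18) and Ier5 (-0.33) when scaled to microglia and macrophage markers, for Nr4a3 (1.03) and Ier2 (1.64) when scaled to T cell markers, and for Egr2 without both low-Foxp3 libraries (-1.26). For tMCAO brain against sham blood, scaling to microglia and macrophage markers turned Ier2 (log2 -1.35) and Ier5 (-0.63). Leaving out 1 library gave log2 values from -1.31 to 8.02 for Egr2 and from -0.40 to 0.65 for Nr4a1 between tMCAO blood and sham blood. A group of 1 library is then assumed to vary like the others. In the first 2 comparisons each of these fits called fewer genes over the whole table than the main fit. The cause of these changes was not tested. Egr3 and Nr4a3 gave no value with only the 2 blood groups, since the filter removed them. With the replicate block 8, 2 and 9 members were called in the 3 comparisons. Of all genes 4.82%, 7.91% and 11.9% were called in either direction. Deviations of same-numbered libraries from their group means correlated at 0.304 between tMCAO brain and tMCAO blood. The correlation was -0.0285 between tMCAO brain and sham blood and -0.0702 between tMCAO blood and sham blood. The labels do not say whether the numbers pair libraries, and these values cannot settle it. With 2 libraries a group, precision is limited by few counts in blood for Egr2, Egr3 and Nr4a3, and by the spread between libraries for Ier3.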
